A study of Sus scrofa with 20 samples.

Results

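Transglutaminases are enzymes that join proteins by covalent bonds between glutamine and lysine residues. In the upper epidermis they bind precursor proteins and lipids into the cornified envelope, the tough shell of the dead outer cells, and cornifelin is one of the proteins of that shell. In humans, loss of TGM1 causes a scaling skin disease (lamellar ichthyosis) and loss of TGM5 causes peeling of the skin of hands and feet. Described here are TGM1, TGM3, TGM5, TGM7 and CNFN (cornifelin), which are 5 of the 19280 gene rows of the table. They were chosen by symbol, and all 5 passed the filter on low counts.

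The samples came from 5 female Yorkshire pigs of wild-type genotype. In each pig 4 sites were taken, which were the foot sole (volar in the labels), the snout, the upper foot (dorsal in the labels) and the flank, for 20 RNA-seq libraries with 1 per site and pig. The pigs were 4, 5, 6, 7 and 8 months old. Each biopsy was a 4 mm punch of whole skin, so that epidermis, hair follicles, glands and dermis were mixed, and fewer cells of a type cannot be told apart from less RNA per cell. The libraries held 34077861 to 66906489 assigned counts. By library number they fall into a first set (12 libraries, pigs of 4, 7 and 8 months) and a second set (8 libraries, pigs of 5 and 6 months).

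The site labels of the second set went against its expression. Each of its 8 libraries had its highest correlation with another first-set site than the one on its label, over the 2000 most variable genes. Those genes were chosen by their variance over all 20 libraries, so the matched libraries took part in the choice. Libraries labelled flank matched the first-set sole, those labelled volar matched the snout, those labelled dorsal matched the flank, and those labelled snout matched the upper foot, with r of 0.777 to 0.872. With the 5 genes and the other genes listed here left out (1950 genes), all 8 matched the same sites. Matches between upper foot and flank were closest (0.807 for flank against 0.749 for upper foot in the 6-month library labelled dorsal). Below, second-set libraries stand under the site they matched, and the first set, whose labels were kept, is given alone beside each comparison of the 5 genes. Tests over all 20 libraries rest on that match, whose 2000 genes held 4 of the 5 described here (all but TGM1), and only the first-set values are free of it. With the deposited labels for all 20 libraries, edgeR's quasi-likelihood test called none of the 5 genes and 0 of 15275 genes (0.0%) in any comparison, while 702 to 3877 genes had an unadjusted p under 0.05. The lowest adjusted p of the 5 genes was then 0.0903 (CNFN, sole against upper foot).

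Some libraries stood apart in other ways. Skeletal muscle genes (4 of 7 in the table) summed to 5286, 3637 and 2396 CPM in the snout libraries of the 7-, 6- and 5-month pigs, and to 11.95 CPM or less in the other libraries. CPM here means counts scaled to the library total, with TMM factors. Values per library are listed below for the pigs of 4, 5, 6, 7 and 8 months, in that order, so that the values of the 5- and 6-month pigs come from the second set. Levels are compared between sites for 1 gene at a time and not between genes, since no transcript lengths were used.

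TGM1, TGM3, TGM5 and CNFN were highest in the sole and next highest in the snout in 5 of 5 pigs, whereas TGM7 was almost absent from the sole and present at the other 3 sites. Relative to the flank, mean levels in the sole were 3.55 times as high for TGM1, 7.84 times for TGM3, 17.2 times for TGM5 and 37.1 times for CNFN. All 5 genes differed between sites (any-site test, edgeR, 5 of 5 called), against 56.2% of the 15275 genes tested. The share of all genes with the same order in every pig, or without overlap between sites, was not computed. Orders and overlaps here and below therefore describe the named genes only.

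**Figure D1:**
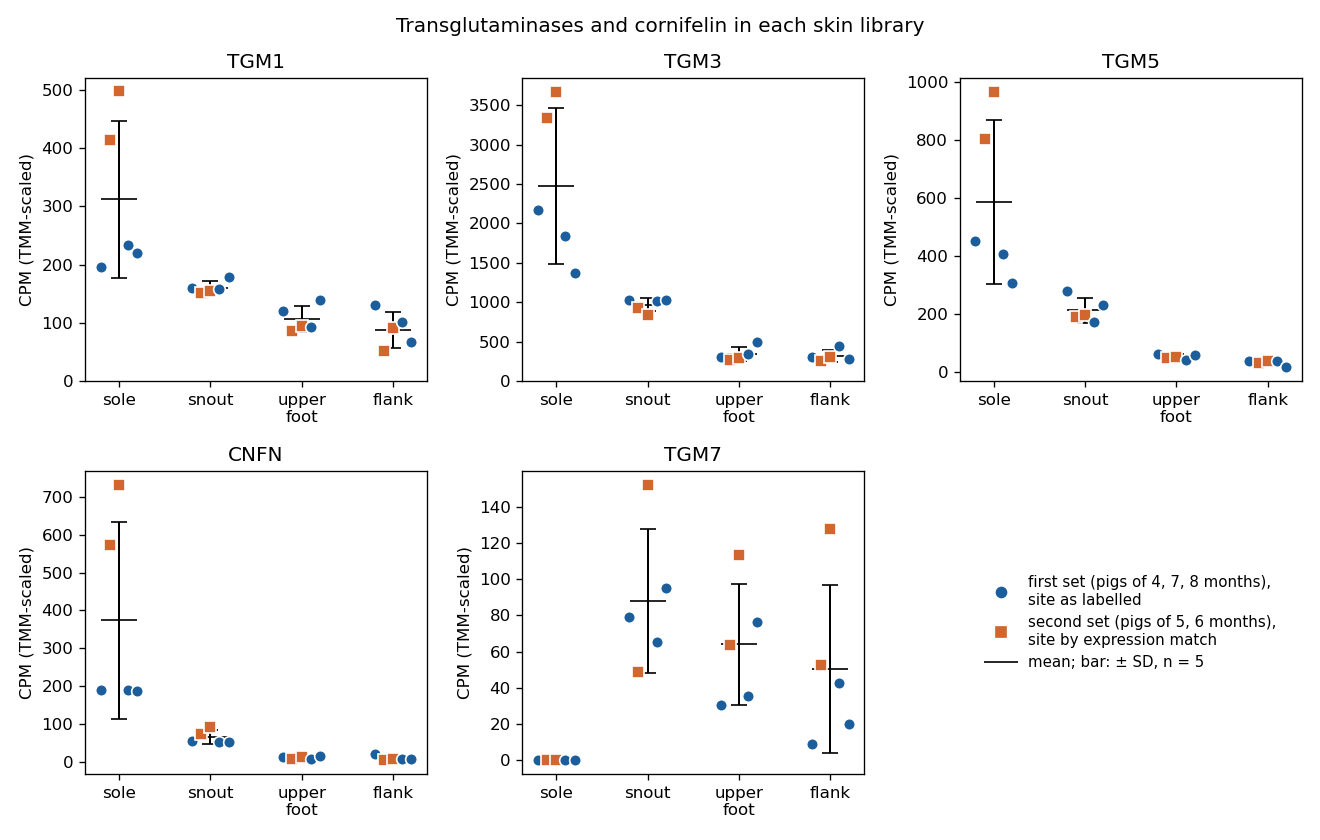
CPM (TMM-scaled, linear axes that include 0) of each gene in each library by site, with the mean and ± SD of 5 pigs. Circles are the first set with sites as labelled, squares the second set with sites by expression match. TGM1, TGM3, TGM5 and CNFN have all 5 sole libraries above every other library, and TGM7 lies at or below 0.1375 CPM in the sole.

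TGM1 encodes the membrane-bound transglutaminase of keratinocytes, which also attaches ceramides to the envelope. In the sole it reached 195, 414, 497.5, 233 and 220 CPM, and in the snout 159.7, 151, 154, 159 and 179 CPM. It stood at 121, 85.2, 94.2, 93.3 and 139.8 CPM in the upper foot and at 130.0, 51.1, 90.4, 102 and 66.3 CPM in the flank. Sole and snout did not overlap with each other or with the 2 haired sites, but upper foot and flank overlapped. Means were 312 ± 135 CPM in the sole, 160.3 ± 10.95 in the snout, 107 ± 22.8 in the upper foot and 88.0 ± 30.9 in the flank (SD, n = 5 each). Both second-set sole libraries lay far above the first-set ones, and the sole held 1.22 to 3.23 times as much as the snout of the same pig.

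TGM3 encodes a soluble transglutaminase of the epidermis and the hair follicle, made as a precursor that proteases activate. Its levels were 2167, 3336, 3669, 1842 and 1366 CPM in the sole and 1026, 931, 837.5, 1012 and 1028 CPM in the snout. The upper foot had 308, 269.5, 295, 340.0 and 490.2 CPM and the flank 307.5, 253, 301, 439.7 and 279 CPM. Snout libraries lay within a narrow band (967 ± 82.6 CPM, SD, n = 5), whereas the sole spread widely (2476 ± 987 CPM, SD, n = 5). Upper foot (341 ± 87.4 CPM) and flank (316 ± 72.4 CPM) overlapped almost wholly.

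TGM5 encodes the transglutaminase of the outer epidermal layers whose loss in humans causes acral peeling skin. Sole libraries held 453.5, 804, 964, 406 and 309 CPM and snout libraries 281, 191, 196, 172 and 232 CPM. Upper foot libraries held 64.15, 50.0, 54.6, 44.4 and 58.5 CPM and flank libraries 39.3, 32.6, 41.0, 40.3 and 17.5 CPM. Of the 5 genes only TGM5 kept the same full order in 5 of 5 pigs, with sole above snout above upper foot above flank. No 2 of its sites overlapped, but how many of all genes share such an order or separation was not computed. Means in that order were 587 ± 282, 214.5 ± 43.1, 54.3 ± 7.59 and 34.2 ± 9.87 CPM (SD, n = 5 each).

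CNFN, the cornified envelope protein, had the largest ratio of sole to flank among the 5 genes. It measured 191, 573, 731, 189 and 186 CPM in the sole and 54.6, 72.4, 92.9, 51.6 and 52.3 CPM in the snout. In the upper foot it measured 13.6, 8.03, 13.4, 7.06 and 15.6 CPM, and in the flank 21.4, 4.67, 8.325, 8.31 and 7.61 CPM. The 3 first-set sole libraries were nearly equal (188.5 ± 2.44 CPM, SD, n = 3) and the 2 second-set ones averaged 652 CPM. Means over 5 pigs were 374 ± 260, 64.8 ± 17.9, 11.5 ± 3.77 and 10.1 ± 6.53 CPM (SD) for sole, snout, upper foot and flank, and only the last pair overlapped.

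TGM7 encodes a transglutaminase whose role in skin is little known. The sole libraries held 3, 3, 3, 0 and 2 counts of it, which is 11 counts in all. At the other sites it had 78.9, 49.0, 152, 65.0 and 95.01 CPM in the snout, 30.6, 63.75, 113, 35.5 and 76.6 CPM in the upper foot and 9.15, 52.5, 128, 42.6 and 20.1 CPM in the flank. Those sites held 24052, 17564 and 12410 counts in sum, and their values overlapped with each other. Scaled for depth, summed TGM7 was 1326 times lower in the sole than in the snout (95% exact interval 741 to 2657), 964 times lower than in the upper foot (539 to 1932) and 754 times lower than in the flank (421 to 1511). These intervals cover counting error only. A sole count of this size is so low that the fitted log2 fold change of TGM7 depends on the prior count used.

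TGM7 and TGM5 are next to each other among the protein-coding genes in the RefSeq annotation (Sscrofa11.1), and EPB42, another family member, follows TGM5. These 3 neighbours had 3 different patterns over the same libraries. TGM5 was highest and TGM7 lowest in the sole in 5 of 5 pigs, and EPB42 (protein 4.2, a red cell membrane protein without enzyme activity) stood at 3.38 to 3.97 CPM on average at all 4 sites, with 0 calls in the 6 comparisons (edgeR, unadjusted p of 0.375 to 0.962). The table does not show how reads of related genes were divided between them.

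In the comparison of sole with flank, hairless weight-bearing skin was set against haired trunk skin. All 5 genes were called (4 higher, 1 lower), against 51.9% of genes tested. The log2 fold changes were 1.83 ± 0.26 for TGM1 (edgeR adjusted p = 1.41e-05), 2.97 ± 0.25 for TGM3 (2.87e-08), 4.10 ± 0.31 for TGM5 (8.17e-09), 5.22 ± 0.51 for CNFN (1.65e-07) and -9.61 ± 0.87 for TGM7 (8.28e-08), with ± as SE. The same direction was seen in 5 of 5 pigs for each. In the first set alone all 5 were called too, against 32.9%, with 1.12 ± 0.22 for TGM1, 2.39 ± 0.24 for TGM3, 3.59 ± 0.33 for TGM5, 3.92 ± 0.42 for CNFN and -9.20 ± 0.87 for TGM7. In the second set alone all 5 were called against 46.7%.

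The comparison of sole with upper foot keeps to 1 limb and sets its hairless side against its haired side. Again 5 of 5 genes were called, against 45.6% of genes. TGM1 was higher by 1.55 ± 0.26 log2 units, TGM3 by 2.86 ± 0.25, TGM5 by 3.43 ± 0.30 and CNFN by 5.02 ± 0.50, and TGM7 was lower (-9.95 ± 0.88, SE; edgeR adjusted p 5.73e-08 to 9.57e-05 over the 5 genes). The first set called all 5 against 24.1%, with TGM1 at 0.87 ± 0.22 (adjusted p = 0.0158), and the second set called all 5 against 42.9%.

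Sole and snout are the sites with the lowest medians of inner root sheath genes, a part of the hair follicle. Over all libraries 5 of 5 genes were called, against 36.0% of genes, with 0.96 ± 0.26 for TGM1 (edgeR adjusted p = 0.00694), 1.36 ± 0.23 for TGM3, 1.45 ± 0.27 for TGM5, 2.53 ± 0.45 for CNFN and -10.41 ± 0.88 for TGM7 (log2 ± SE). The first set alone called 3 of 5 against 11.6% of its genes. TGM3 (0.81 ± 0.23, adjusted p = 0.0443), CNFN (1.84 ± 0.38, 0.0117) and TGM7 were called there, and TGM1 (0.38 ± 0.22, 0.305) and TGM5 (0.77 ± 0.30, 0.132) did not pass. With the pig as replicate block in the first set, TGM3 did not pass either (0.81, adjusted p = 0.0606). The second set alone called 5 of 5 against 38.5%. Without the 3 snout libraries with muscle genes, which leaves those of the 4- and 8-month pigs, 3 of 5 were called, against 14.8% of genes. TGM1 (edgeR adjusted p = 0.143) and TGM5 (0.0565) no longer passed in that fit. Without the 6-month pig, TGM1 no longer passed (0.71, adjusted p = 0.0775).

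Snout against flank called 4 of 5 genes, against 25.5%. TGM3 was higher by 1.61 ± 0.24 log2 units (edgeR adjusted p = 6.09e-05), TGM5 by 2.65 ± 0.29 (2.1e-06), CNFN by 2.69 ± 0.45 (0.000256) and TGM1 by 0.87 ± 0.26 (0.0184). TGM1 lost its call in the first set (0.74 ± 0.22, 0.0504), and when the pig of 8 months (0.0933), 7 months (0.0537) or 5 months (0.0682) was left out, and without the 3 snout libraries with muscle genes (0.098). The first set called 3 of 5 against 13.2% and the second set 4 of 5 against 13%. TGM7 did not pass (0.80, adjusted p = 0.28) but did with the pig as replicate block (1.13 ± 0.39, adjusted p = 0.0376), being higher in the snout in 4 of 5 pigs.

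Snout against upper foot called TGM3 (1.51 ± 0.23, edgeR adjusted p = 0.000144), TGM5 (1.98 ± 0.28, 5.65e-05) and CNFN (2.49 ± 0.45, 0.000565), which is 3 of 5 against 19.3% of genes. TGM1 (0.59, 0.123) did not pass over all libraries, although its 5 snout values all lay above the 5 upper foot values, and it passed in a fit of these 2 sites only (0.56, 0.0108). TGM7 (0.46, 0.599) did not pass either. The first set called 3 of 5 against 7.92% and the second set 3 of 5 against 10.2%.

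Between the 2 haired sites, upper foot against flank, edgeR called 0 of 5 genes and 1.16% of all genes. TGM5 had the largest change, 0.67 ± 0.27 log2 units with an unadjusted p of 0.0231 and an adjusted p of 0.304, was 1.59 times as high in the upper foot and was higher there in 5 of 5 pigs. It was the only one of the 5 with an unadjusted p under 0.05, and the other 4 genes each were higher in the upper foot in 3 of 5 pigs. DESeq2 and limma-voom kept all 5 on the same side of the threshold. The first set called 0 of 5 against 0.131% and the second set 0 of 5 against 0.0393%.

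**Figure D2:**
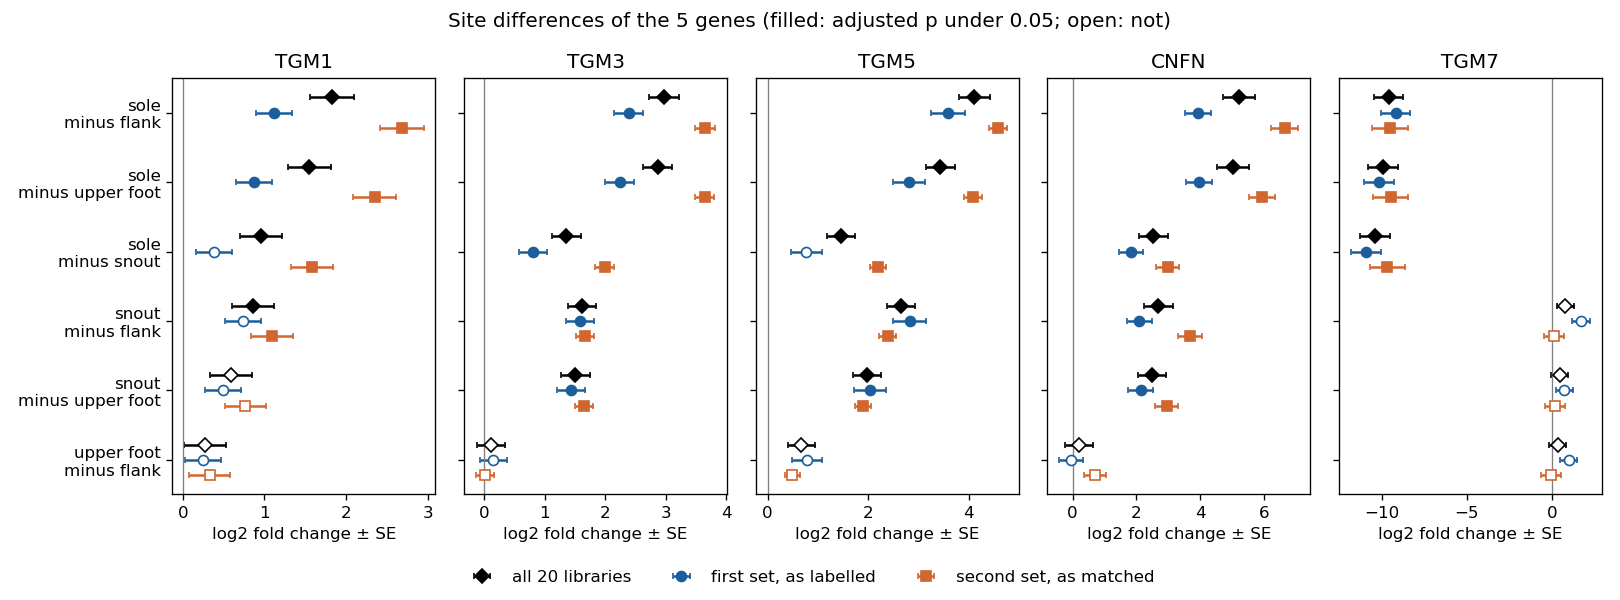
Log2 fold change ± SE (horizontal, linear) of each gene in the 6 site comparisons, from all 20 libraries (diamonds), the first set as labelled (circles) and the second set as matched (squares); filled symbols have an adjusted p under 0.05. The sole comparisons of TGM1, TGM3, TGM5 and CNFN lie right of 0 in both sets and farther right in the second, and TGM7 lies between -10.94 and -9.20 in these comparisons.

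The size of the difference between sole and flank was compared between the sets by a site by set interaction, which called 1.02% of 15275 genes. CNFN was among them, with a log2 difference 2.73 larger in the second set (edgeR adjusted p = 0.0467). For CNFN the interaction did not pass in sole against upper foot (1.96, adjusted p = 0.117), in sole against snout (1.14, 0.331) or over all sites at once (0.146), and the first-set flank holds the library with 21.44 CPM of CNFN. In sole against flank the interaction was 1.57 for TGM1 (adjusted p = 0.0537), 1.27 for TGM3 (0.0664), 1.00 for TGM5 (0.224) and -0.33 for TGM7 (0.965), none of which passed. Set, pig, age and the origin of the site name cannot be told apart here, and the TMM factors of the sole libraries were lower in the second set (0.569 and 0.574) than in the first (0.740 to 0.812).

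Ratios of 2 genes within a library do not depend on the scaling. TGM5 over TGM1 had a log2 ratio of counts of 0.88 ± 0.27 in the sole, 0.40 ± 0.25 in the snout, -0.96 ± 0.21 in the upper foot and -1.35 ± 0.50 in the flank (SD, n = 5 each). Sole and snout both lay wholly above the haired sites, but overlapped with each other. CNFN over TGM1 stood at 0.09 ± 0.40 in the sole, -1.35 ± 0.44 in the snout, -3.25 ± 0.34 in the upper foot and -3.25 ± 0.40 in the flank, where sole, snout and the 2 haired sites did not overlap. TGM3 over TGM1 varied less, with 3.00 ± 0.30 in the sole and 2.59 ± 0.10 in the snout, against 1.67 ± 0.20 in the upper foot and 1.89 ± 0.42 in the flank.

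Against KRT10, a keratin of the differentiating layers above the basal one, the picture differed. TGM1 over KRT10 was lowest in the sole, with -7.81 ± 0.30 there, -6.13 ± 0.45 in the snout, -5.16 ± 0.35 in the upper foot and -4.73 ± 0.37 in the flank, and KRT10 itself averaged 67230 CPM in the sole and 2247 CPM in the flank. TGM3 over KRT10 had -4.81 ± 0.38 in the sole and -2.84 ± 0.27 in the flank. TGM5 over KRT10 had -6.92 ± 0.41 and -6.08 ± 0.56 at these sites, which overlapped, and its mean was highest in the snout (-5.73 ± 0.51). CNFN over KRT10 differed by less than its spread between sole (-7.72 ± 0.65) and flank (-7.98 ± 0.68). This ratio was higher in the snout (-7.47 ± 0.35) than in the upper foot (-8.41 ± 0.26), without overlap between them.

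**Figure D3:**
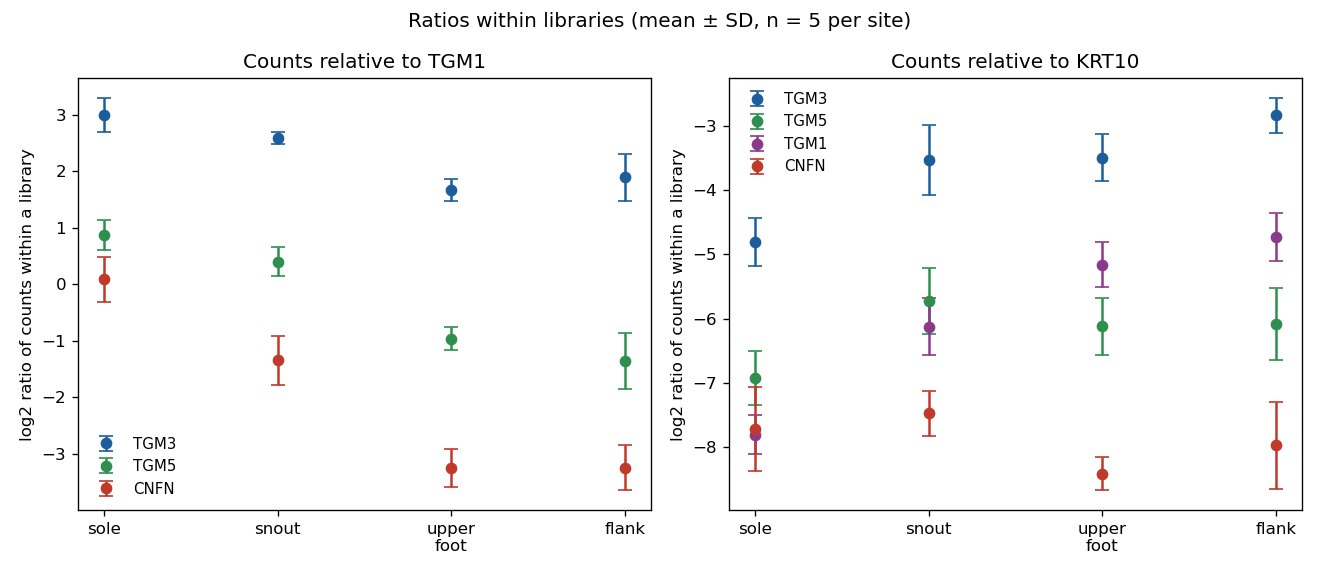
Log2 ratio of counts within a library by site (points, mean of 5 pigs; bars, ± SD), to TGM1 on the left and to KRT10 on the right, with second-set sites by expression match. To TGM1, CNFN is at 0.09 in the sole and -3.25 in the flank; to KRT10, TGM1 is lowest in the sole at -7.81.

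Marker genes of other cell types moved with the sites. Suprabasal epidermal genes (4 of 4, KRT1 and KRT10 among them) summed to 255000 to 593400 CPM in the sole, against 20280 to 32780 in the snout, 16490 to 27070 in the upper foot and 11720 to 21230 in the flank. KRT1 made up most of the sole sum (mean 291100 CPM). In snout against flank over all libraries, 2 of the 4 were higher and 1 lower. The lower gene was KRT1 (4240 CPM in the snout and 8756 CPM in the flank, -1.05 ± 0.26, edgeR adjusted p = 0.00621). Keratinocyte genes (3 of 5 in the table: TP63, CDH1 and PKP1) ranged over 4202 to 5270 CPM in the sole, 2211 to 3516 in the snout, 1642 to 2059 in the upper foot and 970 to 1816 in the flank. PKP1 made up most of the sole sum (mean 3874 CPM, against 361 for TP63 and 438 for CDH1). All 3 were called higher in sole against flank, but only PKP1 in sole against upper foot and sole against snout. Fibroblast genes (5 of 5) ran the other way, with 4614 to 27260 CPM in the sole, 15000 to 34140 in the snout, 20240 to 53190 in the upper foot and 67060 to 142600 in the flank. Their part in the differences of the 5 genes was not tested. Scaled to the 3 keratinocyte genes, with which the median of all genes in sole against flank was -1.29 log2 units (-0.04 with TMM), all 5 genes kept their direction and call in sole against flank and sole against upper foot. With that scaling TGM1 lost its call in sole against snout (0.45, adjusted p = 0.0737) and in snout against flank (0.18, 0.425). Of all genes in sole against flank, 3697 were higher and 4229 lower with TMM, 3030 and 4946 with upper-quartile scaling, and 513 and 12683 with the keratinocyte scaling.

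Hair follicle genes moved with TGM7 in part. Inner root sheath genes (7 of 8 in the table), which line the growing hair, summed to 3.03 to 33.3 CPM in the sole, 308 to 1156 in the snout, 5312 to 13770 in the upper foot and 425 to 17700 in the flank. Hair shaft keratins (3 of 5) summed to 0.463 CPM at most in the sole. They summed to 32.4 to 114.2 CPM in the snout, 491 to 1249 in the upper foot and 77.2 to 1150 in the flank. The snout libraries had TGM7 at 49.0 to 152 CPM with inner root sheath sums of at most 1156 CPM, while the flank library with the lowest sum (425 CPM, 4-month pig) had TGM7 at 9.15 CPM. Sebaceous gland genes (4 of 5) summed to 9.02 to 24.3 CPM in the sole, against 30.7 to 51.8 in the snout, 40.5 to 63.5 in the upper foot and 36.8 to 175.6 in the flank. MGST1 made up most of the flank sum (mean 91.2 CPM, against 16.5 for FADS2 and 0.37 for AWAT2). Of the 4 sebaceous genes 3 were lower and 0 higher in sole against flank, where 27.7% of all genes were lower. Sweat gland genes (3 of 4) summed to 800.1 to 5927 CPM in the sole and to at most 264 CPM elsewhere, and AQP5, a water channel, made up most of the sole sum (mean 2719 CPM). In sole against flank 2 of the 3 were higher and 1 lower, which was KRT77 (6.80 CPM in the sole and 119.9 CPM in the flank). The part of any of these cell types in the level of TGM7 was not tested.

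**Figure D4:**
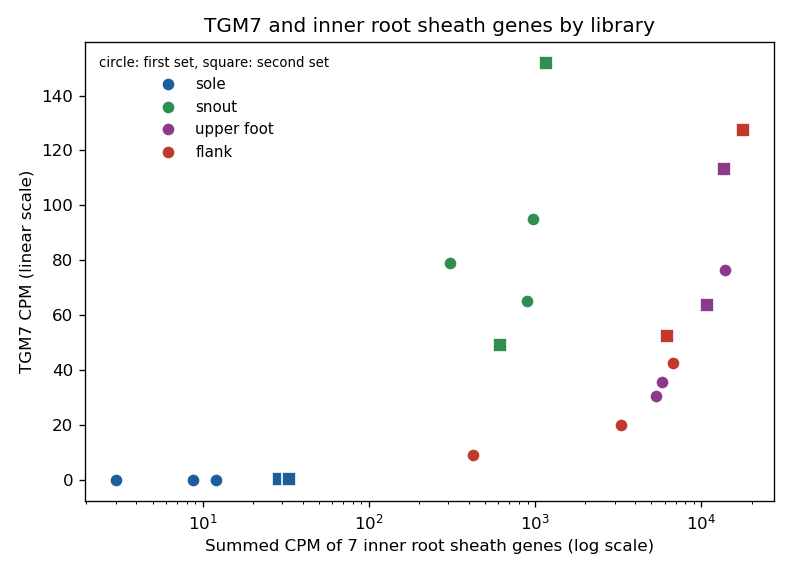
TGM7 CPM (vertical, linear) against the summed CPM of 7 inner root sheath genes (horizontal, log scale) in each of 20 libraries, coloured by site, with circles for the first set and squares for the second. The 5 sole libraries sit at the lower left, and the snout libraries have TGM7 of 49.0 to 152 CPM at sums of 308 to 1156 CPM.

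Among the 9855 genes with a symbol and a mean of at least 5 CPM, those with the pattern most like each gene were named by Pearson r over the 20 libraries (log2 of CPM + 0.5), which share site and depth. For TGM1 they included CCSAP (r = 0.974), CERS3 and C1orf116, and CERS3 makes the ceramides with very long chains that the envelope carries. For TGM3 they were STK24 (0.986), KIF1C, LPIN3, CCDC124 and FADS6, and for TGM5 HECA (0.989), LPIN3, FADS6, DSG1 and LYPD2, where DSG1 is a desmosomal cadherin of the upper epidermis. Those of CNFN included PCSK6 (0.983), ECM1, NOP16 and CCDC124. TGM7 had PPP2R2B (0.968), NEDD4L, ELF5, SYNGR1 and SMOC1. TGM3, TGM5 and CNFN had r of 0.963 to 0.970 with each other and 0.924 to 0.950 with TGM1. TGM7 had r of -0.63 to -0.73 with these 4, but a rank correlation (Spearman's rho) of only -0.32 to -0.43. Its mean was lowest in the sole (0.07 CPM) but highest in the snout (87.9 CPM), the site where the other 4 genes were next highest.

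Of the other transglutaminase genes, 4 of 5 were in the table. F13A1, the A subunit of clotting factor XIII, ran opposite to TGM5, with flank above upper foot above snout above sole in 5 of 5 pigs. It had 25.5, 8.07, 7.24, 12.9 and 38.95 CPM in the sole and 59.1, 70.7, 58.0, 71.7 and 57.1 CPM in the snout. In the upper foot it had 172, 214, 148, 195 and 134 CPM, and in the flank 234, 256, 221.5, 253 and 256 CPM. No 2 of its sites overlapped, and the share of all genes with such an order or separation was not computed. It was lower in the sole than in the flank (-3.71 ± 0.36, edgeR adjusted p = 1.47e-07) and lower in the snout than in the flank (-1.95 ± 0.33, 0.000289), and upper foot against flank did not pass (-0.50, 0.618). The first set gave -3.26 ± 0.33 for sole against flank (8.08e-05). The summed fibroblast genes had the same order, with medians of 9582 CPM in the sole, 20660 in the snout, 33660 in the upper foot and 84680 in the flank. Summed immune genes (4 of 4) had medians of 16.7 CPM in the sole, 30.4 in the snout, 47.5 in the upper foot and 41.1 in the flank. The part of either cell type in F13A1 was not tested.

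TGM2, the tissue transglutaminase found in most cell types, averaged 4.00 ± 3.05 CPM in the sole, 8.47 ± 3.46 in the snout, 8.43 ± 0.71 in the upper foot and 13.8 ± 18.8 in the flank (SD, n = 5 each). Its call in sole against flank (-1.77 ± 0.63, edgeR adjusted p = 0.0231) was lost in the first set (0.152), without the 5-month pig (0.0729), without the 6-month pig (0.0533), with limma-voom (0.129) and in a fit of these 2 sites only (0.0825), and its value was -0.9963 without the 8-month pig, whose flank library had 47.3 CPM. In sole against snout TGM2 did not pass (-1.06, adjusted p = 0.188), but it did with the pig as replicate block (-1.46, 0.0491). TGM6, known in humans mainly from the nervous system, averaged 12.7 ± 10.9 CPM in the sole and 3.60 ± 2.43 CPM in the flank, with 30.6 CPM in the sole of the 5-month pig. Its call there (1.81 ± 0.60, 0.0163) was lost in the first set (0.222), without the 5-month pig (0.169), with the keratinocyte scaling (0.369), with limma-voom (0.113) and in a fit of these 2 sites only (0.0634). Requiring a log2 fold change of at least 1 ended both calls in sole against flank (0.22 for TGM2 and 0.179 for TGM6). In TGM6 and TGM2 all sites overlapped.

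**Figure D5:**
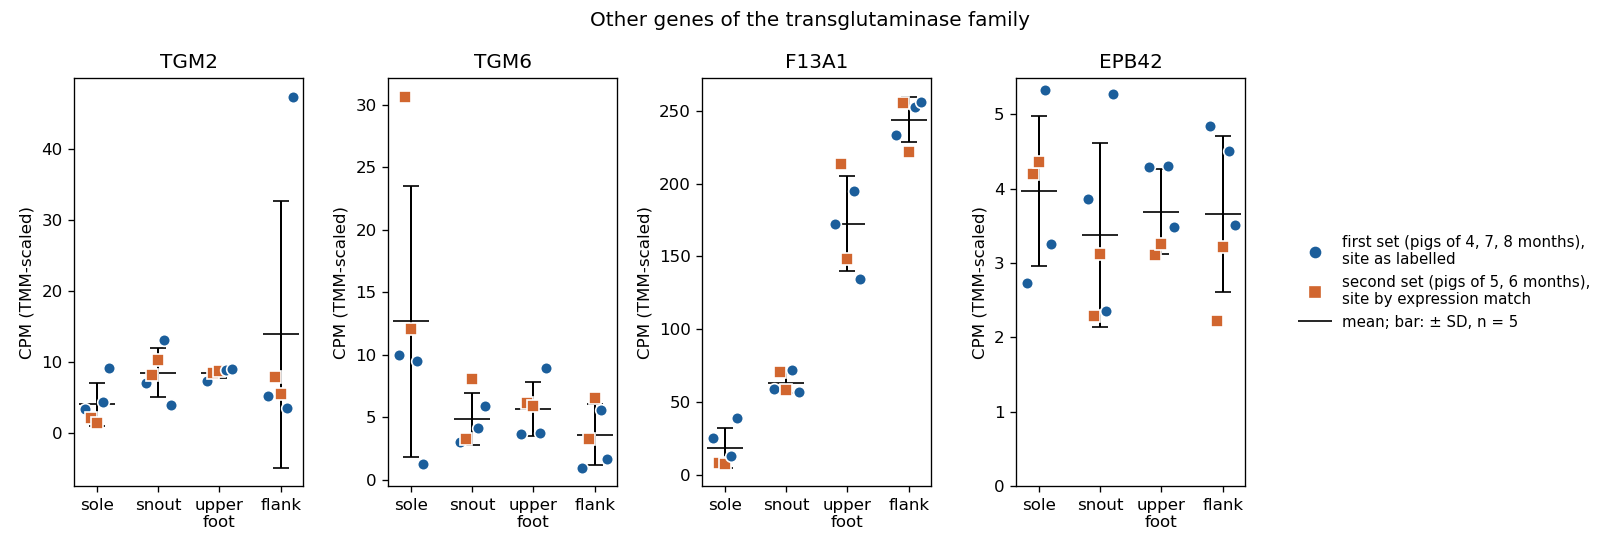
CPM (TMM-scaled, linear axes) of TGM2, TGM6, F13A1 and EPB42 in each library by site, with the mean and ± SD of 5 pigs; circles are the first set, squares the second set by expression match. F13A1 averages 18.5 CPM in the sole and 244 CPM in the flank, EPB42 stays between 2.22 and 5.33 CPM, and TGM2 has 1 flank library at 47.3 CPM.

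Proteins that transglutaminases join into the envelope were represented by 14 of 38 listed genes. Loricrin, filaggrin and the listed SPRR and LCE genes were not matched by symbol, so that main proteins of the envelope are not covered. In sole against flank 7 were higher and 2 lower, with a median log2 fold change of 1.22 (all genes -0.04), where 24.2% of all genes tested were higher and 27.7% lower. SERPINB12 (5.27 ± 0.32), KRT1 (5.06 ± 0.31), KRT10 (4.90 ± 0.31) and the desmosomal protein DSP (2.32 ± 0.22) had the smallest adjusted p (7.45e-10 to 1.05e-07, edgeR). In the first set 8 were higher and 3 lower, against 16.9% and 16.0% of its genes. The list did not move as one in the snout. Against the flank 6 were higher and 3 lower there over all libraries (all genes 13.6% and 11.8%) and 6 and 3 in the first set (7.77% and 5.46%), and KRT2, a keratin of the upper epidermis, averaged 6.22 ± 3.13 CPM in the snout and 2469 ± 1914 CPM in the flank. Against the upper foot, KRT1 was lower in the snout (-1.60 ± 0.27, adjusted p = 0.000262) and KRT10 higher (1.56 ± 0.27, 0.000411).

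Genes of the lipid envelope, most of which supply or process the ceramides that TGM1 attaches, were also listed together with a few barrier proteases. Of 18 tested (of 20 listed), 15 were higher and 0 lower in sole against flank (median 1.45), 14 and 0 in sole against upper foot (1.45), and 15 and 0 in sole against snout (1.10). Of all genes 24.2%, 23.0% and 16.9% were higher in these comparisons. The first set called 10, 11 and 1 of them higher and 0 lower, where 16.9%, 14% and 5.71% of its genes were higher. In sole against snout the first set thus lay near the share of all genes. The fatty acid elongase ELOVL1 (1.58 ± 0.17, edgeR adjusted p = 4.04e-07), the protease ST14 (1.21 ± 0.15), the protease ASPRV1 (3.15 ± 0.42) and the lipoxygenase ALOX12B (2.91 ± 0.40) had the smallest adjusted p in sole against flank. ALOX12B averaged 184 ± 123 CPM in the sole and 24.4 ± 14.1 CPM in the flank (SD, n = 5 each). Snout against flank called 6 and snout against upper foot 3, all higher in the snout, where 13.6% and 11.7% of all genes were higher. The first set called 2 and 1, where 7.77% and 5% of its genes were higher. Except for the 6 in snout against flank, these counts lie near the shares of all genes.

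Proteases and their inhibitors that act on transglutaminases went both ways. Of 9 tested (of 13 listed), 2 were higher and 6 lower in sole against flank (median -1.06), and 2 and 3 in the first set. Of all genes, 24.2% were higher and 27.7% lower over all libraries, and 16.9% and 16.0% in the first set. The aspartic protease CTSD (0.77 ± 0.16, edgeR adjusted p = 0.000388) and cathepsin V (CTSV, 0.84 ± 0.17, 0.000523) were higher, and cathepsins S (CTSS, -1.40 ± 0.22, 2.9e-05) and L (CTSL, -2.40 ± 0.40, 5.81e-05) were lower. In mouse and human skin cathepsin D has been tied to the activation of TGM1 and cathepsin L to that of TGM3. CST6, the cystatin that inhibits legumain and cathepsins L and V, averaged 134 ± 47.6 CPM in the sole and 558.5 ± 134.8 CPM in the upper foot (-2.06 ± 0.41, adjusted p = 0.000422), and 118 ± 25.8 CPM in the snout.

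Regulators of terminal differentiation were represented by 18 of 20 genes. In sole against flank 12 were higher and 0 lower (median 0.79), against 24.2% and 27.7% of all genes. In the first set alone 3 were higher and 1 lower, a share below the 32.9% of its genes that were called. PRDM1, a repressor that acts late in keratinocyte differentiation, averaged 797 ± 211 CPM in the sole, 186 ± 58.5 in the snout, 106 ± 20.6 in the upper foot and 76.5 ± 21.2 in the flank (SD, n = 5 each). It was called in sole against flank over all libraries (3.38 ± 0.25, edgeR adjusted p = 8.34e-09) and in the first set (3.11 ± 0.28, 4.27e-05), as was TFAP2C (1.89 ± 0.22 and 1.75 ± 0.25). GRHL3, a factor needed for the skin barrier, was higher in snout than in upper foot (94.8 ± 27.1 and 35.2 ± 8.32 CPM, 1.43 ± 0.30, adjusted p = 0.00214).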

How the data were processed

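The authors deposited estimated counts per Ensembl gene for 20 libraries. The submitters' processing notes name Salmon. The Salmon version, genome build and annotation were not given in the sources used here, so no coordinates are printed. RNA was made into stranded mRNA libraries, per the labels' protocols. They were rounded to whole numbers, since 42.2% had decimals (tolerance 1e-09). Symbols came from the supplied name tables (14821 of 19280 identifiers matched), and neighbours from RefSeq (Sscrofa11.1). Listed genes counted as missing had no row with their symbol. As 4459 rows had no symbol, such genes may be present without a name.

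Tests were quasi-likelihood F tests (robust) in edgeR 4.0.16 (R 4.3.3) on 4 sites of 5 libraries, scaled by TMM, after filterByExpr with a count minimum of 10 and a total minimum of 15 (15275 genes, 16 residual degrees of freedom) and Benjamini-Hochberg adjustment over all genes, called under 0.05. The SE printed with an edgeR log2 fold change is its absolute value divided by the square root of the F statistic. For TGM7 in the sole comparisons this SE depends on the prior count, as the fold change does. The same fit was made in the first set (15302 genes) and the second set (15280 genes). Alternatives were DESeq2 1.42.0, limma-voom (limma 3.58.1), other scalings, no count filter, a set term, 2 sites only, and left-out pigs or libraries. Libraries of 1 pig pair across sites per the labels. The median r between their deviations from the means of site and set was 0.26 (-0.0013 to 0.47). Between different pigs and sites of a set it was -0.17 (-0.47 to 0.18). In the second set the deviations of its 2 pigs mirror each other by construction, so these values depend on the centring. No 2 libraries were copies (highest r 0.982).

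The 5 genes, the lists and the site match were chosen with earlier results of these data known. Genes were named by rule: the 5 genes and the family genes in any case, 5 most alike per gene (some of which are not reported here), and up to 4 passing genes with the smallest adjusted p per list and comparison. Sequences are not used here.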

Additional observations from a re-analysis of the deposited data

Results flagged for a closer look

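In the flank, CNFN of the 4-month pig was 21.44 CPM, apart from the other 4 flank libraries at 4.67 to 8.325 CPM. The gap to the nearest value took 0.782 of the whole range, above the critical 0.710 for 5 samples. In the flank, TGM2 of the 8-month pig was 47.3 CPM, with a gap of 0.900 of the range. Among the 36 groups of 5 libraries looked at (9 genes at 4 sites), 2 stood out this way, and chance flags about 1 in 20 groups. CNFN in sole against flank differed between the sets, by 2.73 log2 units more in the second set (edgeR interaction, adjusted p = 0.0467). The first-set flank includes the library with 21.44 CPM, and the interaction of CNFN did not pass in sole against upper foot (1.96, adjusted p = 0.117), in sole against snout (1.14, 0.331) or over all sites at once (0.146). The sets hold 2 and 3 pigs.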

How the results depend on the processing

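Under the deposited labels for all 20 libraries, the number of the 5 genes called was 0 in sole against flank, sole against upper foot, sole against snout, snout against flank and snout against upper foot, and 0 for any site. The log2 fold changes then turned round for sole against flank (TGM1 -0.34, TGM3 -0.17, TGM5 -0.26, CNFN -0.88, TGM7 1.47), for snout against flank (TGM1 -0.84, TGM3 -1.15, TGM5 -1.24, CNFN -2.90) and for upper foot against flank (TGM1 -1.29, TGM3 -2.25, TGM5 -2.95, CNFN -4.77). The labels' construction, with 8 libraries under other sites, is the only change in that fit. In sole against snout, 5 genes were called, against 36.0% of all genes. The first set called 3 (11.6% of its genes), and 2 with the pig as replicate block (14.7%). Without the 3 snout libraries with muscle genes 3 were called (14.8%), and the snout then held only the 4- and 8-month pigs. Requiring a log2 fold change of at least 1 left 2 calls (6.97%). The cause of these changes was not tested. That fold requirement also ended the calls of TGM1 in sole against upper foot (adjusted p = 0.0597) and snout against flank (1.0) and of TGM3 in snout against upper foot (0.11). In upper foot against flank, where no gene was called, signs changed with the keratinocyte scaling (TGM1 -0.13, TGM3 -0.36, TGM7 -0.079, CNFN -0.18), in the first set (CNFN -0.041) and in the second (TGM7 -0.039). Leaving out 1 pig at a time gave -0.11 to 0.25 for TGM3 and -0.030 to 0.60 for CNFN there, the lowest without the 8-month pig. With the pig as replicate block, TGM7 in snout against flank was called (1.13) and no other call of the 5 genes changed. DESeq2, limma-voom, RLE (median-of-ratios) scaling, scaling by upper quartile, no count filter, a set term, the 20 most abundant genes left out and the 7-month flank library left out each kept 30 of 30 log2 fold changes of the 5 genes on the same side. The last of these, the muscle-gene libraries and the blocked first set were chosen after seeing the data. The order of the most alike genes depended on the measure: by Spearman's rho 0 or 1 of the 5 were the same for each gene. At 11 counts, depth limits the sole level of TGM7.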
